A study of Homo sapiens with 12 samples.

Results

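Autophagy delivers cell contents to the lysosome, and 47 genes of that route were followed across 2 kidney cancer cell lines in which FoxO1 or FoxO3 could be switched on. They were chosen by name for their known roles and fall into 5 subgroups: 4 genes of the ATG8 family, 15 of the ULK complex and membrane nucleation, 9 of ATG8 and ATG12 conjugation, 5 cargo receptors, and 14 lysosomal genes with the TFEB family of transcription factors. Each gene was read from the probe set, annotated to that gene alone, with the highest mean over the arrays. All 47 were found among the 19775 genes with such a probe set, and all 47 were among the 14280 that reached the array median (log2 6.67) in at least 2 arrays and so entered the tests. No array read any of them at the lower limit set for dim signal (log2 4.20), and TFEB, with a mean log2 level of 6.17, was the dimmest.

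Autophagosomes begin with the ULK kinase complex and the class III phosphatidylinositol 3-kinase complex, which mark the membrane from which they grow. A pair of ubiquitin-like conjugation systems then attaches ATG8 proteins to that membrane, cargo receptors bind both the ATG8 proteins and ubiquitinated cargo, and lysosomal hydrolases, working at the acid pH set by the vacuolar ATPase, digest what arrives. TFEB, TFE3 and MITF switch on many lysosomal genes, TFE3 and MITF are altered in some kidney cancers, and FoxO3 is known in mice as an activator of autophagy genes in muscle.

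RCC4 and UMRC2 are established human kidney cancer lines whose own FoxO1 and FoxO3 expression is low. They stably carried FoxO1(TA)ERT2 or FoxO3(TA)ERT2, in which 3 AKT phosphorylation sites are changed to alanine and the factor is fused to a modified estrogen receptor part that holds it in the cytoplasm until 4-hydroxytamoxifen (4OHT) is given; the control lines are labelled EV and, by the labels, carry ERT2 alone. All lines were kept under puromycin and treated for 12 h with 4OHT at 100 nM or with its vehicle, ethanol, and each of the 12 combinations has 1 array. The labels do not say whether an engineered line is a pool or 1 clone. Values are log2 levels of array intensity, and a response is the difference of 4OHT minus vehicle, in log2, within 1 engineered line. The 2 parent lines are the replicates of a construct (n = 2), so no value has a repeat culture, the number of arrays limits the precision, and in bulk RNA fewer expressing cells and less RNA per cell cannot be told apart.

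The constructs were visible through ESR1, whose log2 level without 4OHT was 12.99 in RCC4 FoxO3, 13.55 in UMRC2 FoxO3, 9.22 in RCC4 FoxO1 and 12.59 in UMRC2 FoxO1, against 4.67 in RCC4 EV and 5.51 in UMRC2 EV. ESR1 was thus higher in the FoxO3 than in the FoxO1 line of each parent. In the 4 arrays labelled EV it stayed below the array median, between 4.67 and 6.56, which goes against the ERT2 that the labels give these lines; EV below means the lines so labelled. The part of either fact in the differences from EV was not tested. Isoform and fusion level run together, so in the differences between FoxO3 and FoxO1 they cannot be told apart. As deposited, 1 array stood apart: the spike-in controls of RCC4 FoxO3 with 4OHT had a geometric mean intensity of 2155, near the UMRC2 arrays (1833 to 2051) and below the other RCC4 arrays (3504 to 3939). The renal epithelial markers PAX8, KRT8 and KRT18 were above the array median in all 12 arrays, LHX1 was below it in all of them, and PAX2 was above it in 11. COL1A1, DCN and PECAM1 were also above the median in all 12 arrays and CD3E in 9, while the leukocyte marker PTPRC and the endothelial markers VWF and KDR were below it in all, and CDH5 and CD14 were at the lower limit in all. The level summed over the 3 measured leukocyte markers, in log2, was 7.85 to 8.06 in the 4 FoxO arrays with 4OHT, against 6.86 to 7.77 in the other arrays; that of the 5 fibroblast markers was 10.30 to 10.71 against 9.94 to 10.40, that of the 4 endothelial markers 8.64 to 9.05 against 8.67 to 9.06, and that of the 5 measured renal markers 12.998 to 13.96 against 13.64 to 14.24. The part of these markers in the results was not tested.

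With FoxO3 switched on, the ATG8 genes GABARAPL1, GABARAPL2 and MAP1LC3B and the nucleation genes ATG13, BECN1, PIK3C3, WIPI1 and WIPI2 rose relative to EV. So did the cargo receptors NBR1, OPTN and TAX1BP1, the lysosomal genes LAMP2, CTSB, CTSL and ATP6V1H, and MITF of the TFEB family. GABARAPL1 rose the most, at 2.53 on the log2 scale. Against the EV response, the FoxO3 response was thus higher for 16 of the 47 genes and lower for 1, CTSD, by limma with a Benjamini-Hochberg adjusted p under 0.05 over all genes tested. Of all genes tested, 6.61% were higher and 10.0% lower in that comparison. The FoxO1 response differed from the EV response for 0 of the 47 by limma, with 7 at an unadjusted p under 0.05. Over all genes tested the FoxO1 shares were 0.0840% higher and 0% lower, with 1429 genes at an unadjusted p under 0.05.

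Tested directly against each other, FoxO3 exceeded FoxO1 for 6 of the 47 genes and was lower for 0, where the whole table gave 2.17% higher and 3.64% lower. The 6 were GABARAPL1, GABARAPL2, MAP1LC3B, PIK3C3, WIPI2 and CTSL. ESR1 was also higher in the FoxO3 line of each parent, so isoform and fusion level cannot be told apart here. Averaged over both isoforms, FoxO was above EV for 7 genes (GABARAPL1, MAP1LC3B, WIPI2, OPTN, LAMP2, CTSB and ATP6V1H) and below it for CTSD, beside 3.08% and 4.70% of all genes. The median difference from EV over the 47 genes was 0.30 for FoxO3 and 0.11 for FoxO1 on the log2 scale, where all genes tested had medians of -0.07 and -0.02. These comparisons share the EV pairs, so their values are set side by side and not combined.

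These counts moved with the processing. Shares over all genes are given below only for the intensities as deposited. For the other fits they are left out, so the counts below do not show whether these genes or the whole table moved. Without the filter on dim probe sets, or with 1 prior variance for all genes, limma called 0 of the 47 in each of the 3 comparisons; at an unadjusted p under 0.05, FoxO3 against EV then had 25 and 22 of them. With the intensities as deposited, which keep the dim RCC4 FoxO3 array with 4OHT at its own level, 1 gene (GABARAPL1) passed for FoxO3 and 0 for FoxO on average or for FoxO3 against FoxO1, with 3, 2 and 1 at an unadjusted p under 0.05 by limma. Of the 14690 genes in those fits, 0.858% were higher and 3.08% lower for FoxO3, 0.490% and 0.735% for FoxO on average, and 0.0885% and 0.218% for FoxO3 against FoxO1. Without the RCC4 FoxO3 pair altogether, 13 genes passed for FoxO3. Dropping the EV pair lowered the FoxO3 count to 10 for RCC4 and to 8 for UMRC2, and dropping UMRC2 FoxO3 gave 11. For FoxO on average the count was 1 when either EV pair was dropped, 4 when RCC4 FoxO1 was dropped, 3 when UMRC2 FoxO1 was dropped, 11 when RCC4 FoxO3 was dropped and 9 when UMRC2 FoxO3 was dropped. For FoxO3 against FoxO1 it was 0 when either FoxO1 pair was dropped and 4 when either FoxO3 pair was dropped.

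Single pairs, read without a test, showed more of the 47 genes upwards than the background in the FoxO3 lines and fewer than the background in the FoxO1 and EV lines. A response of at least 1.5-fold upwards was seen for 18 of the 47 genes in RCC4 FoxO3 (18.2% of all genes tested), 20 in UMRC2 FoxO3 (17.4%), 3 in RCC4 FoxO1 (9.73%) and 2 in UMRC2 FoxO1 (10.7%), against 0 in RCC4 EV (5.87%) and 0 in UMRC2 EV (6.90%). Downwards the counts were 3 in RCC4 FoxO3 (24.1%), 1 in UMRC2 FoxO3 (21.7%), 1 in RCC4 FoxO1 (9.95%) and 1 in UMRC2 FoxO1 (12.0%), against 0 in RCC4 EV (5.37%) and 0 in UMRC2 EV (6.25%). As deposited, the RCC4 FoxO3 pair instead had 2 genes up and 18 down by that measure, beside 6.23% and 67.4% of all genes. For 10 genes all 4 FoxO responses lay above both EV responses (12.0% of all genes tested): GABARAP, GABARAPL1, MAP1LC3B, ULK1, BECN1, WIPI1, OPTN, LAMP2, CTSB and ATP6V1H. For 3 genes, ATG4C, ATG7 and CTSD, all 4 lay below both (15.7%).

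**Figure D1:**
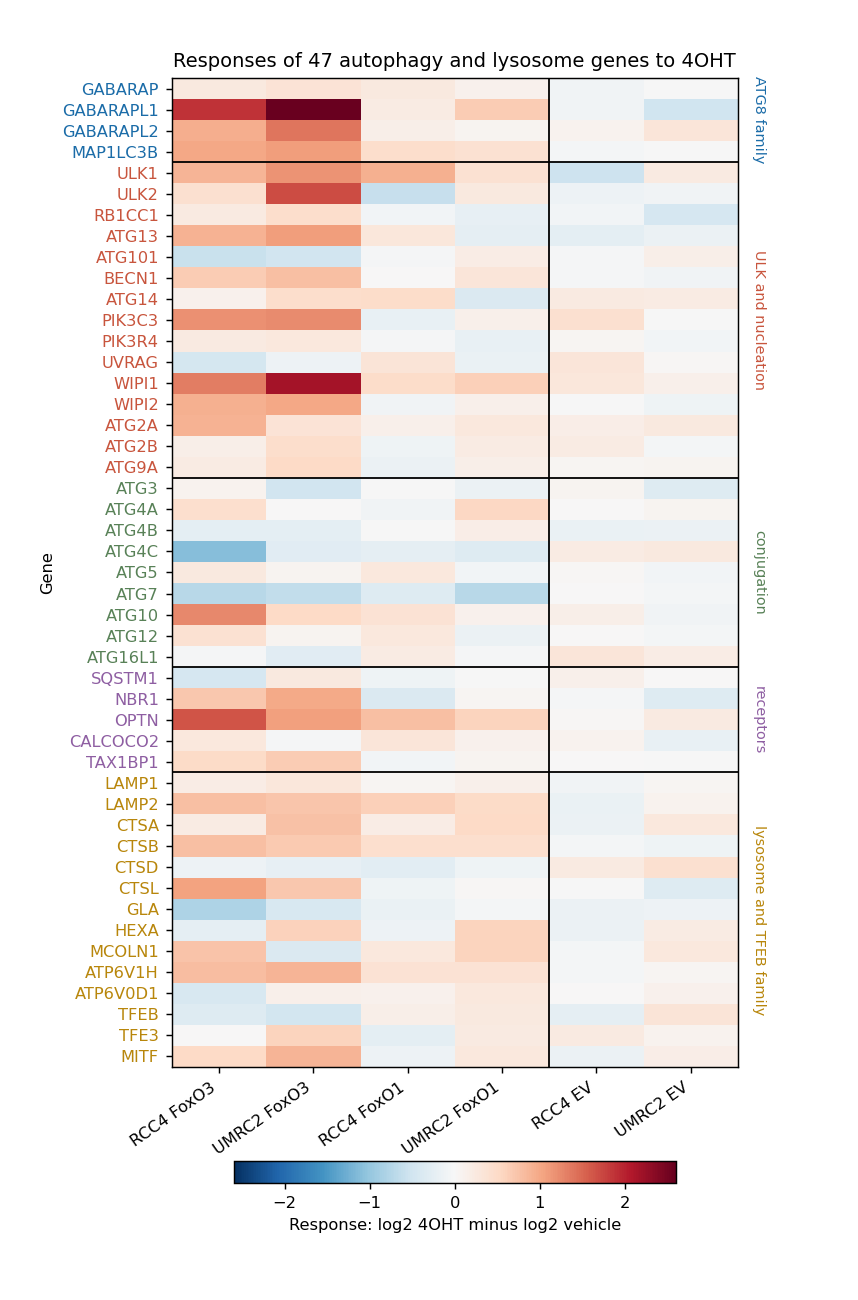
Response of each of the 47 genes (rows, by subgroup) in the 6 engineered lines (columns, FoxO left of EV), as log2 level with 4OHT minus log2 level with vehicle, red for higher and blue for lower, 1 pair of arrays a cell. The FoxO3 columns hold the strongest colours, with GABARAPL1 at 1.88 in RCC4 and 2.57 in UMRC2, and the conjugation rows hold mixed colours.

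The ATG8 family, the ubiquitin-like proteins that coat the growing autophagosome, had 3 of its 4 members higher under FoxO3 than EV and 0 lower, with a median log2 difference of 1.03. GABARAPL1, a member of the GABARAP branch, had a log2 level of 11.09 with 4OHT against 9.21 with vehicle in RCC4 FoxO3 and 11.13 against 8.56 in UMRC2 FoxO3. With 4OHT against vehicle it stood at 9.30 against 9.09 in RCC4 FoxO1, 9.23 against 8.57 in UMRC2 FoxO1, 9.14 against 9.24 in RCC4 EV and 8.35 against 8.87 in UMRC2 EV. Both FoxO3 arrays with 4OHT stood above all others, the 10 other arrays lay between 8.35 and 9.30, and the FoxO and EV responses did not overlap. The log2 difference from EV was 2.53 ± 0.31 (adjusted p = 0.00297) for FoxO3 and 0.74 ± 0.31 (adjusted p = 0.492) for FoxO1 by limma. FoxO3 exceeded FoxO1 by 1.79 ± 0.31 (adjusted p = 0.0245), a call kept in 3 of the 6 fits (log2 1.45 to 2.13, adjusted p up to 0.170) that each leave out 1 pair, while the call of FoxO3 against EV was kept in all 6. FoxO on average exceeded EV by 1.64 ± 0.27 (adjusted p = 0.0155), kept in 5 of the 6 fits (log2 1.14 to 2.13, adjusted p up to 0.140) and lost without the UMRC2 EV pair.

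GABARAPL2, also called GATE-16, measured, in log2 level with 4OHT against vehicle, 12.99 against 12.05 in RCC4 FoxO3, 13.48 against 12.09 in UMRC2 FoxO3, 11.91 against 11.76 in RCC4 FoxO1 and 12.31 against 12.25 in UMRC2 FoxO1. In the EV lines its values were 11.89 against 11.81 in RCC4 and 12.24 against 11.92 in UMRC2. Only the FoxO3 arrays with 4OHT stood above the rest, in both parent lines, and the FoxO1 responses overlapped the EV responses. Its log2 difference from EV was 0.97 ± 0.17 (adjusted p = 0.00835) for FoxO3 and -0.09 ± 0.17 (adjusted p = 0.909) for FoxO1, and FoxO3 exceeded FoxO1 by 1.06 ± 0.17 (adjusted p = 0.0207), calls kept in all 6 fits without 1 pair and in 4 of the 6 fits (log2 0.84 to 1.28, adjusted p up to 0.1001). MAP1LC3B, the LC3 protein most used as an autophagosome marker, was at log2 12.83 with 4OHT and 11.81 with vehicle in RCC4 FoxO3, and at 12.66 and 11.58 in UMRC2 FoxO3. The same pair of levels was 12.26 and 11.81 in RCC4 FoxO1, 12.03 and 11.62 in UMRC2 FoxO1, 11.80 and 11.85 in RCC4 EV, and 11.38 and 11.40 in UMRC2 EV. All 4 FoxO lines were higher with 4OHT than with vehicle and neither EV line was, so the responses did not overlap. FoxO on average exceeded EV by 0.77 ± 0.12 (adjusted p = 0.0135), FoxO3 by 1.08 ± 0.14 (adjusted p = 0.00343) and FoxO1 by 0.46 ± 0.14 (adjusted p = 0.345). FoxO3 exceeded FoxO1 by 0.62 ± 0.14 (adjusted p = 0.0481), a call kept in 0 of the 6 fits (log2 0.57 to 0.67, adjusted p up to 0.279) without 1 pair; those against EV were kept in all 6 for FoxO3 and in 4 of the 6 fits (log2 0.75 to 0.80, adjusted p up to 0.1003) for FoxO on average. GABARAP, the founding member of its branch, reached a log2 level of 12.34 in 4OHT-treated RCC4 FoxO3 cells, with 12.08 in their vehicle array, and of 12.87 against 12.52 in UMRC2 FoxO3. The FoxO1 lines read 12.28 against 12.03 in RCC4 and 12.74 against 12.62 in UMRC2, and the EV lines 12.09 against 12.19 in RCC4 and 12.60 against 12.61 in UMRC2. Its FoxO responses were small but above both EV responses. The log2 difference was 0.36 ± 0.13 (adjusted p = 0.118) for FoxO3 and 0.30 ± 0.12 (adjusted p = 0.176) for FoxO on average, neither past the threshold.

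**Figure D2:**
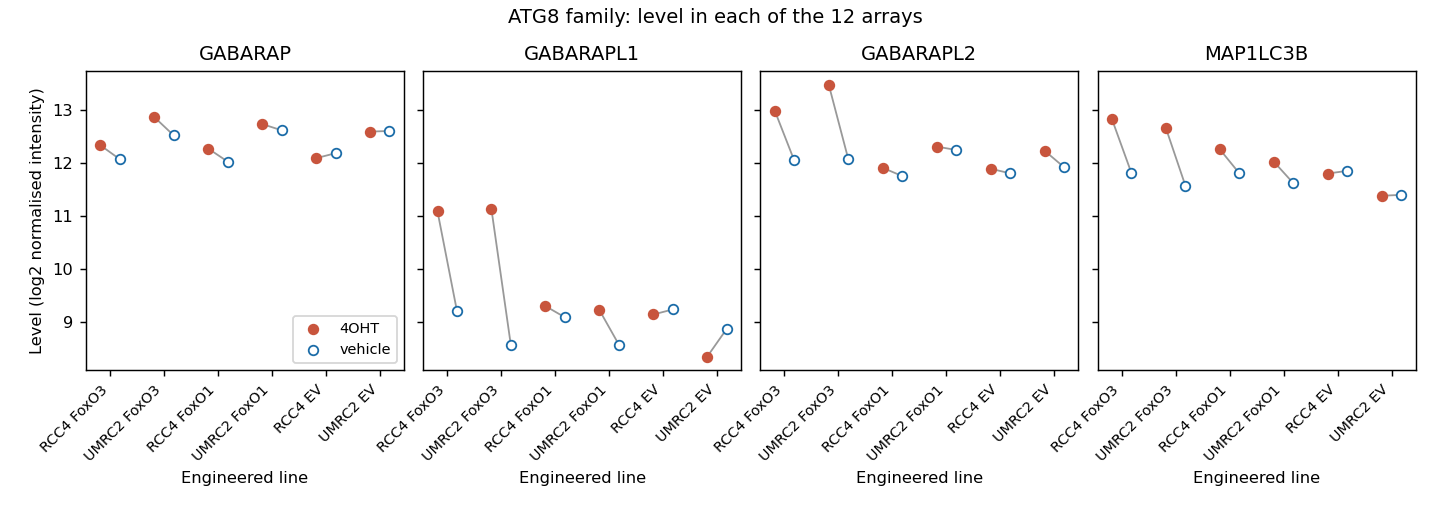
Log2 level of the 4 ATG8 genes in each of the 12 arrays, filled points with 4OHT and open points with vehicle, joined for each engineered line, 1 array a point. GABARAPL1, GABARAPL2 and MAP1LC3B stand apart with 4OHT in both FoxO3 lines, while GABARAP moves by no more than 0.35 in any line.

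Promoter windows of 250 bases before to 50 after the start were given by RefSeq (GRCh38.p14) for 41 of the 47 genes, in 52 windows; RB1CC1, UVRAG, LAMP2, CTSB, HEXA and ATP6V1H were not among them. The core FoxO motif GTAAACA, searched on both strands, was in 2 of these windows (3.85%), against 3.42% of all 35116 windows. These were the windows of CTSL, at base -152 from the start, and of CALCOCO2, at -226; CTSL was called under FoxO3 and CALCOCO2 was not. The 250 bases before the start are shown for GABARAPL1, the gene with the highest FoxO3 value, and for CTSL, both on the plus strand, at chr12:10212627-10212876 and chr9:87725869-87726118, with the motif in capitals. No match in the GABARAPL1 window says only that these letters are not in it.
GABARAPL1: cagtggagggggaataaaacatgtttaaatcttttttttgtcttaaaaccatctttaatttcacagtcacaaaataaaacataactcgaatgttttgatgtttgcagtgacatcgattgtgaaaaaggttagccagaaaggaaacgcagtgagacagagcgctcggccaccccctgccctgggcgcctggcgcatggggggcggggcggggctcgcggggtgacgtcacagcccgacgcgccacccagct
CTSL: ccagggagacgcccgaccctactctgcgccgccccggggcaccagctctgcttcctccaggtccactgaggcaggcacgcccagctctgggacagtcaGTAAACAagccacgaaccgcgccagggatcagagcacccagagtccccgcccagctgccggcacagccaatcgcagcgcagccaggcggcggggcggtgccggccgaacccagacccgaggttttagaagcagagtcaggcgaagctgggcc

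The 15 genes of the ULK complex and membrane nucleation had 5 members higher under FoxO3 than EV and 0 lower (median log2 difference 0.59 for FoxO3 and -0.02 for FoxO1). They were ATG13, a scaffold of the ULK complex; BECN1 and PIK3C3, the regulatory and catalytic core of the lipid kinase that starts nucleation; and WIPI1 and WIPI2, which bind the lipid it makes. WIPI1 gave log2 levels, 4OHT against vehicle, of 9.42 against 8.09 in RCC4 FoxO3, 10.87 against 8.70 in UMRC2 FoxO3, 8.86 against 8.37 in RCC4 FoxO1 and 9.41 against 8.79 in UMRC2 FoxO1. RCC4 EV had 8.44 against 8.15 and UMRC2 EV 8.84 against 8.72. UMRC2 FoxO3 had the highest response, and the 4 FoxO responses lay above both EV responses. Relative to EV, WIPI1 gained 1.54 ± 0.31 (adjusted p = 0.0160) under FoxO3, while FoxO1 gave 0.34 ± 0.31 (adjusted p = 0.778); the difference between the isoforms was 1.20 ± 0.31 (adjusted p = 0.0699). With 1 pair left out, the FoxO3 call of WIPI1 was kept in 4 of the 6 fits (log2 1.11 to 1.97, adjusted p up to 0.123). WIPI2, which recruits the ATG16L1 conjugation machinery, had a log2 level of 12.86 with 4OHT against 11.93 with vehicle in RCC4 FoxO3 and 12.73 against 11.72 in UMRC2 FoxO3. With 4OHT against vehicle it stood at 11.84 against 11.94 in RCC4 FoxO1, 11.72 against 11.58 in UMRC2 FoxO1, 11.88 against 11.90 in RCC4 EV and 11.45 against 11.56 in UMRC2 EV. Both FoxO3 lines were higher with 4OHT, while the FoxO1 and EV responses overlapped. The log2 difference was 1.03 ± 0.15 (adjusted p = 0.00500) for FoxO3 against EV and 0.95 ± 0.15 (adjusted p = 0.0209) for FoxO3 against FoxO1. FoxO on average gave 0.56 ± 0.13 (adjusted p = 0.0452), a call kept in 2 of the 6 fits (log2 0.43 to 0.69, adjusted p up to 0.339) without 1 pair. Its FoxO3 call against EV was kept in all 6, and that against FoxO1 in 4 of the 6 fits (log2 0.83 to 1.07, adjusted p up to 0.190).

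PIK3C3, the catalytic subunit also known as VPS34, measured, in log2 level with 4OHT against vehicle, 10.02 against 8.82 in RCC4 FoxO3, 11.55 against 10.31 in UMRC2 FoxO3, 8.94 against 9.14 in RCC4 FoxO1 and 10.20 against 10.07 in UMRC2 FoxO1. In the EV lines its values were 9.03 against 8.62 in RCC4 and 10.27 against 10.28 in UMRC2. The FoxO3 array with 4OHT was the highest of each parent line, and RCC4 EV had a higher response than either FoxO1 line. FoxO3 stood above EV by 1.02 ± 0.25 (adjusted p = 0.0322) and above FoxO1 by 1.25 ± 0.25 (adjusted p = 0.0347), calls kept in 3 of the 6 fits (log2 0.71 to 1.32, adjusted p up to 0.233) and in 2 of the 6 fits (log2 0.99 to 1.52, adjusted p up to 0.296) without 1 pair. BECN1, the regulatory partner of PIK3C3, was at log2 11.53 with 4OHT and 10.87 with vehicle in RCC4 FoxO3, and at 11.14 and 10.35 in UMRC2 FoxO3. The same pair of levels was 10.87 and 10.87 in RCC4 FoxO1, 10.67 and 10.35 in UMRC2 FoxO1, 10.96 and 10.997 in RCC4 EV, and 10.41 and 10.51 in UMRC2 EV. Its 4 FoxO responses lay above both EV responses, that of RCC4 FoxO1 only just. The log2 difference from EV was 0.79 ± 0.19 (adjusted p = 0.0273) for FoxO3 and 0.22 ± 0.19 (adjusted p = 0.746) for FoxO1; with 1 pair left out, the FoxO3 call was kept in 2 of the 6 fits (log2 0.65 to 0.93, adjusted p up to 0.183). ATG13 reached a log2 level of 10.85 in 4OHT-treated RCC4 FoxO3 cells, with 9.93 in their vehicle array, and of 11.43 against 10.35 in UMRC2 FoxO3. The FoxO1 lines read 10.37 against 10.08 in RCC4 and 10.33 against 10.57 in UMRC2, and the EV lines 9.72 against 9.97 in RCC4 and 10.61 against 10.76 in UMRC2. The response of UMRC2 FoxO1 lay between the EV responses, so the groups overlapped, while both FoxO3 responses stood above all others. The log2 difference was 1.20 ± 0.23 (adjusted p = 0.0133) for FoxO3 and 0.71 ± 0.20 (adjusted p = 0.0761) for FoxO on average, and the FoxO3 call was kept in 5 of the 6 fits (log2 1.01 to 1.39, adjusted p up to 0.0771) without 1 pair.

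ULK1, the kinase that starts autophagy, gave log2 levels, 4OHT against vehicle, of 8.68 against 7.80 in RCC4 FoxO3, 8.76 against 7.60 in UMRC2 FoxO3, 8.45 against 7.53 in RCC4 FoxO1 and 7.92 against 7.51 in UMRC2 FoxO1. RCC4 EV had 7.71 against 8.24 and UMRC2 EV 7.34 against 7.10. Its 4 FoxO responses lay above both EV responses, but the EV responses went opposite ways. It had the highest value of its subgroup for FoxO on average, 0.99 ± 0.35 (adjusted p = 0.138), and gave 1.17 ± 0.40 (adjusted p = 0.0943) for FoxO3, neither past the threshold. ATG101, which stabilises ATG13, had a log2 level of 9.80 with 4OHT against 10.38 with vehicle in RCC4 FoxO3 and 10.64 against 11.14 in UMRC2 FoxO3. With 4OHT against vehicle it stood at 10.36 against 10.39 in RCC4 FoxO1, 11.25 against 11.05 in UMRC2 FoxO1, 10.40 against 10.44 in RCC4 EV and 11.10 against 10.94 in UMRC2 EV. Both FoxO3 lines were lower with 4OHT and both FoxO1 lines stayed near the EV lines. ATG101 had the lowest value of the subgroup for FoxO on average, -0.29 ± 0.16 (adjusted p = 0.333), and gave -0.60 ± 0.18 (adjusted p = 0.0639) for FoxO3. The other 8 members, ULK2, RB1CC1, ATG14, PIK3R4, UVRAG, ATG2A, ATG2B and ATG9A, had FoxO3 minus EV values from -0.46 for UVRAG to 1.17 for ULK2, none past the threshold.

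The conjugation genes code for the enzymes that process ATG8 proteins and join them to lipid. By limma, 0 of the 9 passed in any comparison of responses. At an unadjusted p under 0.05, FoxO3 against EV had 3 of the 9, beside 4317 of all 14280 genes tested. The median log2 difference from EV over the 9 genes was -0.07 for FoxO3 and 0.09 for FoxO1. ATG10, the E2-like enzyme that charges ATG5 with ATG12, measured, in log2 level with 4OHT against vehicle, 9.91 against 8.66 in RCC4 FoxO3, 8.58 against 8.06 in UMRC2 FoxO3, 9.12 against 8.73 in RCC4 FoxO1 and 8.36 against 8.24 in UMRC2 FoxO1. In the EV lines its values were 8.85 against 8.70 in RCC4 and 8.07 against 8.16 in UMRC2. RCC4 FoxO3 was the highest array, and the response of UMRC2 FoxO1 lay between the EV responses. Its values of 0.85 ± 0.28 (adjusted p = 0.0877) for FoxO3 and 0.53 ± 0.24 (adjusted p = 0.251) for FoxO on average were the highest of the subgroup. ATG4C, a protease that trims ATG8 proteins, was at log2 7.38 with 4OHT and 8.48 with vehicle in RCC4 FoxO3, and at 8.01 and 8.31 in UMRC2 FoxO3. The same pair of levels was 7.79 and 8.02 in RCC4 FoxO1, 7.78 and 8.12 in UMRC2 FoxO1, 8.42 and 8.20 in RCC4 EV, and 8.15 and 7.90 in UMRC2 EV. All 4 FoxO lines were lower with 4OHT and both EV lines higher, so the responses did not overlap. Its values of -0.94 ± 0.36 (adjusted p = 0.123) and -0.73 ± 0.31 (adjusted p = 0.211) were the lowest of the subgroup. ATG7, the E1-like enzyme shared by both conjugation systems, also had all its FoxO responses below EV, with -0.65 ± 0.27 (adjusted p = 0.148) for FoxO3. The other 6, ATG3, ATG4A, ATG4B, ATG5, ATG12 and ATG16L1, lay between -0.42 for ATG16L1 and 0.25 for ATG12 under FoxO3.

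Among the 5 cargo receptors, proteins that tether ubiquitinated cargo to ATG8 proteins, OPTN, NBR1 and TAX1BP1 were higher under FoxO3 than EV and 0 were lower (median 0.58 for FoxO3 and 0.02 for FoxO1). OPTN, a receptor for damaged mitochondria and bacteria, reached a log2 level of 13.62 in 4OHT-treated RCC4 FoxO3 cells, with 11.98 in their vehicle array, and of 12.73 against 11.67 in UMRC2 FoxO3. The FoxO1 lines read 12.89 against 12.10 in RCC4 and 12.23 against 11.66 in UMRC2, and the EV lines 11.66 against 11.63 in RCC4 and 11.54 against 11.29 in UMRC2. All 4 FoxO lines were higher with 4OHT by more than either EV line, and the vehicle arrays of the 4 fusion lines also stood above those of the EV lines. The log2 difference was 0.88 ± 0.17 (adjusted p = 0.0257) for FoxO on average, 1.21 ± 0.20 (adjusted p = 0.00701) for FoxO3 and 0.54 ± 0.20 (adjusted p = 0.421) for FoxO1. The FoxO3 call of OPTN was kept in all 6 fits without 1 pair, and that for FoxO on average in 4 of the 6 fits (log2 0.57 to 1.18, adjusted p up to 0.177), lost without the RCC4 EV or the UMRC2 FoxO1 pair. Without 4OHT, the fusion lines minus EV gave 0.39 ± 0.06 (adjusted p = 0.627), not past the threshold. NBR1, a receptor for protein aggregates and peroxisomes, gave log2 levels, 4OHT against vehicle, of 11.37 against 10.68 in RCC4 FoxO3, 11.08 against 10.11 in UMRC2 FoxO3, 10.31 against 10.69 in RCC4 FoxO1 and 10.004 against 9.95 in UMRC2 FoxO1. RCC4 EV had 10.67 against 10.69 and UMRC2 EV 9.74 against 10.07. Both FoxO3 responses stood above the other 4, and RCC4 FoxO1 had the lowest. NBR1 under FoxO3 differed from EV by 1.02 ± 0.23 (adjusted p = 0.0251) and from FoxO1 by 0.995 ± 0.23 (adjusted p = 0.0540), the second not past the threshold. Its call against EV was kept in 4 of the 6 fits (log2 0.68 to 1.35, adjusted p up to 0.188) without 1 pair.

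TAX1BP1, a relative of CALCOCO2, had a log2 level of 12.52 with 4OHT against 12.02 with vehicle in RCC4 FoxO3 and 12.01 against 11.34 in UMRC2 FoxO3. With 4OHT against vehicle it stood at 11.95 against 12.01 in RCC4 FoxO1, 11.45 against 11.39 in UMRC2 FoxO1, 12.01 against 12.000 in RCC4 EV and 11.25 against 11.25 in UMRC2 EV. Both FoxO3 responses stood above the other 4, which lay close to 0. TAX1BP1 differed from EV by 0.58 ± 0.15 (adjusted p = 0.0356) under FoxO3, a call kept in 0 of the 6 fits (log2 0.50 to 0.66, adjusted p up to 0.208) without 1 pair. SQSTM1, the receptor p62, which is itself degraded by autophagy, measured, in log2 level with 4OHT against vehicle, 13.84 against 14.28 in RCC4 FoxO3, 13.05 against 12.80 in UMRC2 FoxO3, 14.18 against 14.29 in RCC4 FoxO1 and 12.70 against 12.70 in UMRC2 FoxO1. In the EV lines its values were 14.39 against 14.26 in RCC4 and 12.91 against 12.90 in UMRC2. RCC4 FoxO3 was lower with 4OHT and UMRC2 FoxO3 higher, and the FoxO and EV responses overlapped. It had the lowest value of the subgroup, -0.15 ± 0.16 (adjusted p = 0.652) for FoxO on average, and its sign turned without the RCC4 EV pair or without the RCC4 FoxO3 pair. CALCOCO2, the receptor NDP52, gave 0.17 ± 0.16 (adjusted p = 0.557) for FoxO3 and 0.26 ± 0.16 (adjusted p = 0.659) for FoxO1.

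**Figure D3:**
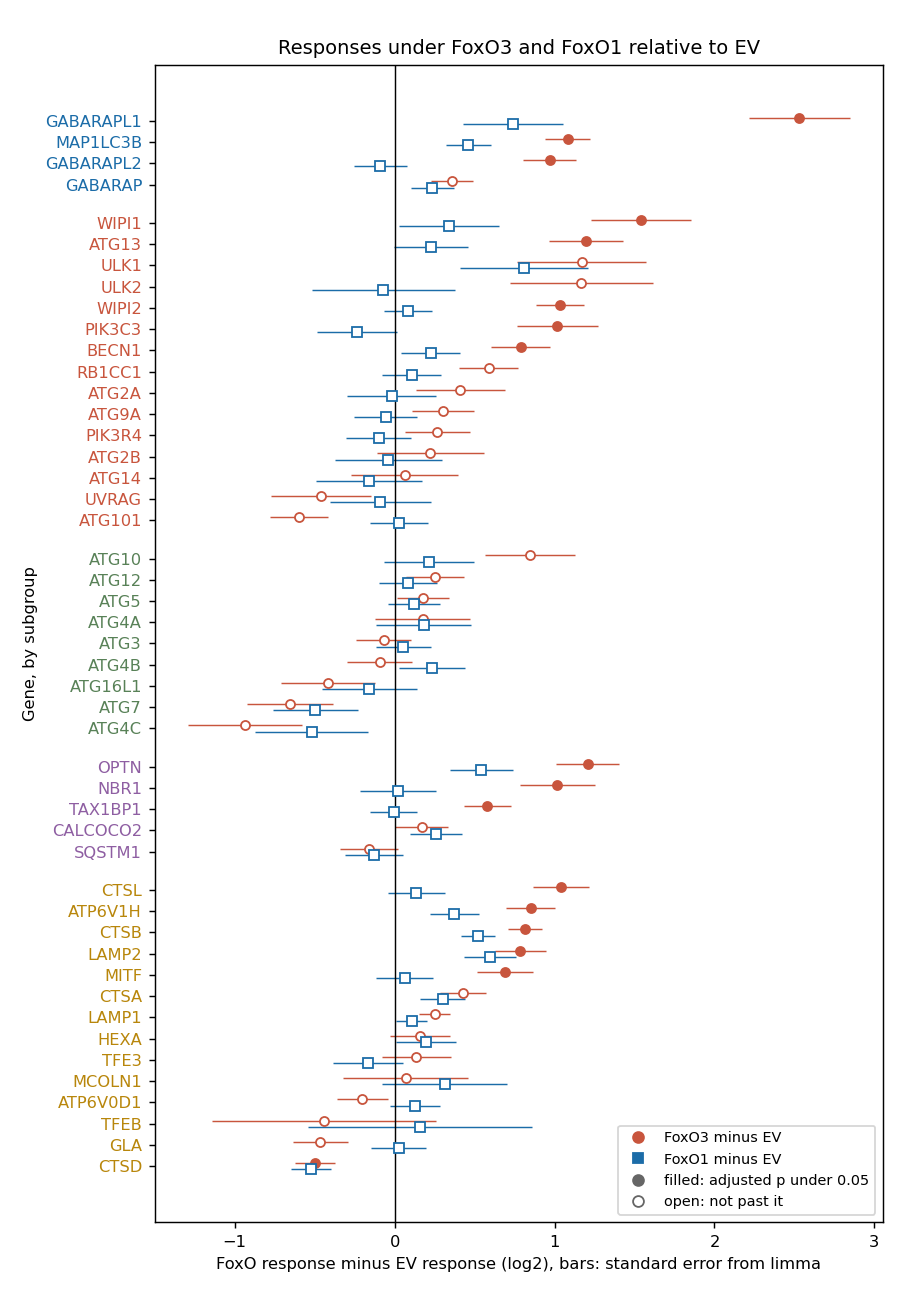
Log2 response minus EV response of each gene, circles for FoxO3 and squares for FoxO1, with limma standard errors as bars and filled symbols where the adjusted p is under 0.05, by subgroup. All filled symbols are FoxO3 values, 16 to the right of 0 and CTSD to the left, with none among the conjugation genes.

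Of the 14 lysosomal and TFEB family genes, 5 were higher under FoxO3 than EV and CTSD was lower, with a median log2 difference of 0.20 for FoxO3 and 0.15 for FoxO1. CTSB, the cysteine protease cathepsin B, was at log2 13.60 with 4OHT and 12.82 with vehicle in RCC4 FoxO3, and at 14.08 and 13.41 in UMRC2 FoxO3. The same pair of levels was 13.11 and 12.67 in RCC4 FoxO1, 13.86 and 13.44 in UMRC2 FoxO1, 12.71 and 12.77 in RCC4 EV, and 13.21 and 13.33 in UMRC2 EV. All 4 FoxO lines were higher with 4OHT and both EV lines slightly lower. FoxO on average exceeded EV by 0.67 ± 0.09 (adjusted p = 0.00928), FoxO3 by 0.81 ± 0.11 (adjusted p = 0.00356) and FoxO1 by 0.52 ± 0.11 (adjusted p = 0.153); the call for FoxO3 was kept in all 6 fits without 1 pair, and that for FoxO on average in 4 of the 6 fits (log2 0.65 to 0.69, adjusted p up to 0.0774). CTSL, the cysteine protease cathepsin L, reached a log2 level of 13.24 in 4OHT-treated RCC4 FoxO3 cells, with 12.20 in their vehicle array, and of 11.63 against 10.93 in UMRC2 FoxO3. The FoxO1 lines read 11.94 against 12.05 in RCC4 and 11.10 against 11.06 in UMRC2, and the EV lines 12.16 against 12.16 in RCC4 and 11.16 against 11.51 in UMRC2. Both FoxO3 responses stood above the other 4, that of RCC4 highest, and the FoxO1 responses overlapped those of EV. The log2 difference was 1.04 ± 0.18 (adjusted p = 0.00822) for FoxO3 against EV and 0.91 ± 0.18 (adjusted p = 0.0323) for FoxO3 against FoxO1, calls kept in 5 of the 6 fits (log2 0.92 to 1.16, adjusted p up to 0.0592) and in 3 of the 6 fits (log2 0.66 to 1.15, adjusted p up to 0.306) without 1 pair. CTSD, the aspartic protease cathepsin D, gave log2 levels, 4OHT against vehicle, of 12.77 against 12.89 in RCC4 FoxO3, 12.93 against 13.14 in UMRC2 FoxO3, 12.73 against 13.001 in RCC4 FoxO1 and 12.86 against 12.98 in UMRC2 FoxO1. RCC4 EV had 12.94 against 12.70 and UMRC2 EV 13.19 against 12.77. All 4 FoxO lines were lower with 4OHT and both EV lines higher. FoxO on average stood below EV with -0.51 ± 0.11 (adjusted p = 0.0340), FoxO3 with -0.50 ± 0.13 (adjusted p = 0.0345) and FoxO1 with -0.52 ± 0.13 (adjusted p = 0.222). The EV response itself was 0.33 ± 0.09, and the calls for FoxO and FoxO3 were kept in 2 of the 6 fits (log2 -0.58 to -0.44, adjusted p up to 0.259) and in 1 of the 6 fits (log2 -0.62 to -0.37, adjusted p up to 0.206) without 1 pair.

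LAMP2, a lysosomal membrane protein needed for fusion with autophagosomes, had a log2 level of 12.37 with 4OHT against 11.59 with vehicle in RCC4 FoxO3 and 12.49 against 11.77 in UMRC2 FoxO3. With 4OHT against vehicle it stood at 11.87 against 11.25 in RCC4 FoxO1, 12.30 against 11.80 in UMRC2 FoxO1, 11.24 against 11.40 in RCC4 EV and 11.78 against 11.69 in UMRC2 EV. The 4 FoxO responses were close to each other and above both EV responses. FoxO on average exceeded EV by 0.69 ± 0.14 (adjusted p = 0.0286), FoxO3 by 0.79 ± 0.16 (adjusted p = 0.0165) and FoxO1 by 0.60 ± 0.16 (adjusted p = 0.296). With 1 pair left out, the LAMP2 call was kept in 2 of the 6 fits (log2 0.52 to 0.87, adjusted p up to 0.208) for FoxO on average and in 4 of the 6 fits (log2 0.61 to 0.96, adjusted p up to 0.116) for FoxO3. ATP6V1H, a subunit of the cytosolic part of the vacuolar ATPase, measured, in log2 level with 4OHT against vehicle, 12.32 against 11.51 in RCC4 FoxO3, 12.01 against 11.12 in UMRC2 FoxO3, 11.78 against 11.41 in RCC4 FoxO1 and 11.33 against 10.95 in UMRC2 FoxO1. In the EV lines its values were 11.51 against 11.56 in RCC4 and 11.07 against 11.02 in UMRC2. Its responses ran in the order FoxO3, FoxO1, EV in both parent lines and did not overlap. FoxO on average gave 0.61 ± 0.13 (adjusted p = 0.0361) and FoxO3 0.85 ± 0.15 (adjusted p = 0.0102), calls kept in 2 of the 6 fits (log2 0.58 to 0.64, adjusted p up to 0.189) and in 4 of the 6 fits (log2 0.82 to 0.88, adjusted p up to 0.0595) without 1 pair. As the mean of its 3 probe sets the sign turned, to -0.09 and -0.05. MITF, a transcription factor of the TFEB family, was at log2 10.87 with 4OHT and 10.36 with vehicle in RCC4 FoxO3, and at 11.66 and 10.79 in UMRC2 FoxO3. The same pair of levels was 10.14 and 10.28 in RCC4 FoxO1, 11.08 and 10.81 in UMRC2 FoxO1, 10.31 and 10.47 in RCC4 EV, and 11.10 and 10.93 in UMRC2 EV. UMRC2 FoxO3 had the highest response, RCC4 FoxO3 the next, and the FoxO1 responses overlapped those of EV. FoxO3 exceeded EV by 0.69 ± 0.18 (adjusted p = 0.0363), a call kept in 0 of the 6 fits (log2 0.66 to 0.72, adjusted p up to 0.177) without 1 pair and lost without cell line as a block (adjusted p = 0.0912).

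The other 8 genes of the subgroup did not pass, with FoxO3 minus EV values from -0.46 for GLA, the alpha-galactosidase deficient in Fabry disease, to 0.43 for CTSA, a serine carboxypeptidase. Of the TFEB family, TFEB gave -0.44 ± 0.70 (adjusted p = 0.733) and TFE3 0.14 ± 0.22 (adjusted p = 0.736). The other probe set of TFEB was about as dim, with a mean log2 level of 6.16. Read without a test, it gave -2.09 for FoxO3 minus EV (-1.32 in RCC4 and -2.86 in UMRC2), so the size for TFEB depends on the probe set. LAMP1, the other major lysosomal membrane protein, had 0.25, HEXA, the hexosaminidase deficient in Tay-Sachs disease, 0.16, MCOLN1, a lysosomal calcium channel, 0.07, and ATP6V0D1, a subunit of the membrane part of the vacuolar ATPase, -0.20. MCOLN1 went opposite ways under FoxO3, with a response of 0.74 in RCC4 and -0.38 in UMRC2.

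The palindrome TCACGTGA, an extended E-box bound by TFEB family factors, was in 5 of the 52 promoter windows (9.62%), those of LAMP1, CTSA, MCOLN1, ATP6V0D1 and ATG3, and in 0.98% of all windows. Its core CACGTG, which lies within it, was in 7 (13.5%), those of the same 5 genes with CTSD and ATG14, against 7.26% of all windows. Both are palindromes and so read the same on either strand. Of these 7 genes CTSD alone was called under FoxO3, where it was lower. LAMP2, CTSB and ATP6V1H, lysosomal genes called higher under FoxO3, had no window and so were not searched. The windows of 3 lysosomal genes are shown because the motif stands near their starts while none of the 3 passed: MCOLN1 at chr19:7522524-7522623, CTSA at chr20:45891235-45891334 and LAMP1 at chr13:113297139-113297244, all on the plus strand from base -100, the last reaching base 6 after the start, with TCACGTGA in capitals.
MCOLN1: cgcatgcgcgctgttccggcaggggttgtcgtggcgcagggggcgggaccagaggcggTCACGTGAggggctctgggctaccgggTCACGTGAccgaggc
CTSA: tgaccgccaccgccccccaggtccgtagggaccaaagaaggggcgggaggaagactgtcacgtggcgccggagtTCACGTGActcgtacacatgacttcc
LAMP1: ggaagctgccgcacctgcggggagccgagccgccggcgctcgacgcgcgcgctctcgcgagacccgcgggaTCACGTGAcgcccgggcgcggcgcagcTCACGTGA

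A further list of 120 genes of the pathway was read the same way; 109 were tested, 2 were too dim, and the rest were not analysed here. Of the 109, FoxO3 was higher than EV for 20 and lower for 2 (beside 6.61% and 10.0% of all genes). FoxO1 was so for 0 and 0 by limma, beside 0.0840% and 0%. At an unadjusted p under 0.05 FoxO1 had 18 of the 109, beside 1429 of all 14280 genes. FoxO on average was higher for 13 and lower for 0, beside 3.08% and 4.70%. FoxO3 exceeded FoxO1 for 7 and was lower for 1, beside 2.17% and 3.64%. Among the 33 other autophagy genes, 12 were higher under FoxO3 and 0 lower (median 0.74). DEPP1, a FoxO target that modulates autophagy, was at log2 13.25 with 4OHT and at the lower limit with vehicle in RCC4 FoxO3, so its response there was at least 9.04; in UMRC2 FoxO3 it was at 14.10 and 10.35. It responded by 6.21 and 3.10 in the RCC4 and UMRC2 FoxO1 lines and by 0.83 and 0.21 in the EV lines; the vehicle arrays of RCC4 FoxO1 and RCC4 EV (4.94 and 4.30) were far below the array median. The fitted FoxO3 minus EV value, 5.88 ± 0.89 (adjusted p = 0.00546), depends on that limit. RETREG1, a receptor for autophagy of the endoplasmic reticulum, responded by 3.37 and 3.30 in the RCC4 and UMRC2 FoxO3 lines, 1.28 and 1.49 in the FoxO1 lines, and -0.34 and -0.09 in the EV lines. It differed from EV by 3.55 ± 0.25 (adjusted p = 0.00103) under FoxO3 and by 2.58 ± 0.22 (adjusted p = 0.00431) under FoxO on average. TP53INP2, which binds ATG8 proteins, gave 2.54 ± 0.29 (adjusted p = 0.00245), and MAP1LC3C, a further LC3 gene, 2.33 ± 0.56 (adjusted p = 0.0281). MAP1LC3C was dim, with a mean log2 level of 6.93. It responded by 2.21 and 0.74 in the RCC4 and UMRC2 FoxO3 lines and 0.77 and 0.84 in the FoxO1 lines. The EV lines gave -0.30 and -1.42, so part of its FoxO3 minus EV value is the fall in EV.

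Of 18 tested vacuolar ATPase genes, 3 were higher under FoxO3 than EV and 0 lower (median 0.19). ATP6V1A, the catalytic subunit, responded by 1.67 and 1.58 in the RCC4 and UMRC2 FoxO3 lines, 0.87 and 1.07 in the FoxO1 lines, and 0.21 and -0.09 in the EV lines, and FoxO3 exceeded EV by 1.56 ± 0.16 (adjusted p = 0.00181). ATP6V1C2, an isoform of subunit C, gave 2.13 ± 0.46 (adjusted p = 0.0204), and ATP6AP2, an accessory subunit, 0.48 ± 0.13 (adjusted p = 0.0472). Of 46 other lysosomal genes, 3 were higher, a share close to the 6.61% of all genes, and 1 was lower (median 0.28). SMPD1, the acid sphingomyelinase, responded by 1.20 and 1.13 in the RCC4 and UMRC2 FoxO3 lines, 1.15 and 1.39 in the FoxO1 lines, and -0.25 and -0.10 in the EV lines. Its FoxO3 response minus its FoxO1 response was -0.11 ± 0.25 (adjusted p = 0.861). It exceeded EV by 1.34 ± 0.25 (adjusted p = 0.0110) under FoxO3 and by 1.39 ± 0.21 (adjusted p = 0.0124) under FoxO on average. SLC17A5, the sialic acid exporter, gave 1.20 ± 0.28 (adjusted p = 0.0268), and CTSO, a further cathepsin, 1.13 ± 0.29 (adjusted p = 0.0366), while M6PR, a mannose 6-phosphate receptor that sorts hydrolases, was lower with -0.60 ± 0.15 (adjusted p = 0.0372). Of 12 genes of lysosomal mTORC1 and TFEB control, RRAGC, a Rag GTPase, gave 0.94 ± 0.15 (adjusted p = 0.00631) and LAMTOR3, a Ragulator subunit, 0.89 ± 0.17 (adjusted p = 0.0138). RRAGD, the paralogue of RRAGC, was lower with -1.09 ± 0.16 (adjusted p = 0.00483), and FoxO3 was below FoxO1 with -1.07 ± 0.16 (adjusted p = 0.0174).

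**Figure D4:**
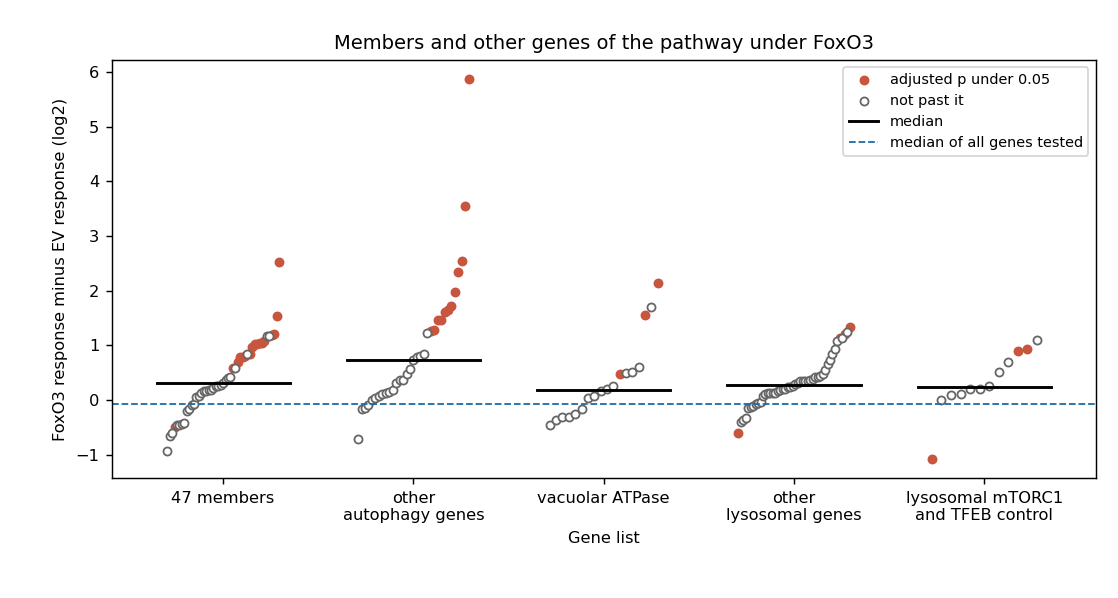
FoxO3 minus EV in log2 for the 47 genes and for 4 further gene lists of the pathway, each point a gene in order of its value, filled where the limma adjusted p is under 0.05, with the median of the list as a bar and that of all genes tested (-0.07) dashed. The other autophagy genes have the highest median, 0.74, and the topmost point, DEPP1, is a fitted value (5.88) that rests on a vehicle array at the lower limit.

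In EV cells limma called 0 of the 47 genes for 4OHT against vehicle (1 at an unadjusted p under 0.05), where 0% of all genes were called (338 unadjusted), and EV responses of single pairs ran from -0.53 to 0.42. Before 4OHT was given, the fusion lines differed from the EV lines for 0 of the 47 (4 unadjusted), beside 0% of all genes (1030 unadjusted), with values from -0.27 to 0.39. ESR1 was not called there either, with vehicle levels of 9.22 to 13.55 in the fusion lines against 4.67 and 5.51 in EV. A count of 0 in this comparison therefore does not show that levels were alike. The FoxO response differed between RCC4 and UMRC2 for 0 of the 47 (0 unadjusted), beside 0% of all genes (338 unadjusted), with estimates from -1.03 to 0.89. In that fit FoxO1 and FoxO3 stood as replicates of FoxO in a line, so differences between the isoforms entered its error.

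The parent lines themselves differed widely without 4OHT: 22 of the 47 genes were higher in RCC4 than in UMRC2 and 11 lower, beside 26.6% and 23.6% of all genes tested. In this fit the engineered lines of each parent stood as its replicates. The errors and p-values of this comparison therefore measure spread among lines made from the same parent, and not among repeat cultures of it. With the intensities as deposited, where RCC4 arrays are brighter, the split was 37 higher and 2 lower, beside 63.9% and 8.32% of all genes. The log2 difference was 1.89 ± 0.06 (adjusted p = 3.66e-06) for GLA, 1.48 ± 0.05 (adjusted p = 4.93e-06) for SQSTM1 and 1.07 ± 0.06 (adjusted p = 3.32e-05) for ATG12, the conjugated ubiquitin-like protein, all higher in RCC4. It was -2.78 ± 0.23 (adjusted p = 0.000133) for ULK2, the second ULK kinase, and -1.36 ± 0.15 (adjusted p = 0.000473) for PIK3C3, both lower in RCC4. The vehicle log2 level of ULK2 was 5.84, 5.80 and 6.05 in the RCC4 FoxO3, FoxO1 and EV lines, against 8.94, 8.66 and 8.44 in the UMRC2 ones, so the parents did not overlap. The RCC4 values of ULK2 were below the array median (log2 6.67), so the size of its difference rests on a dim signal. By subgroup, 6 of the 9 conjugation genes and 4 of the 5 receptors were higher in RCC4 and 0 lower, whereas the ULK and nucleation genes had 3 higher and 6 lower.

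**Figure D5:**
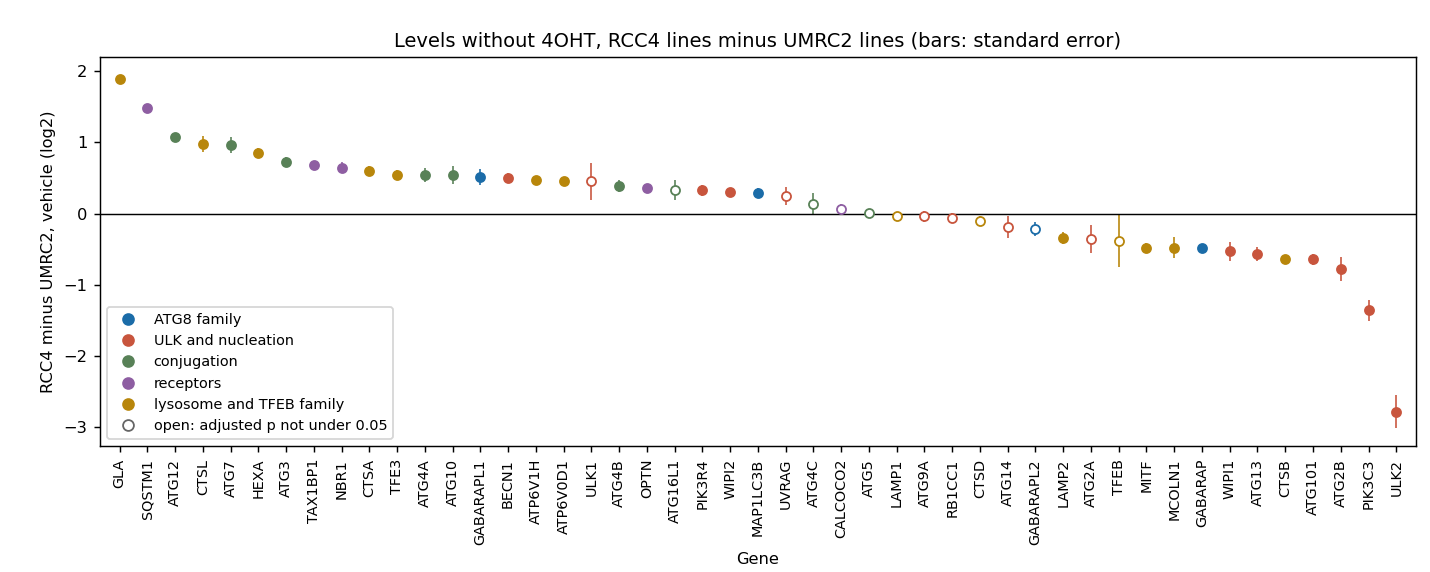
Vehicle log2 level in the RCC4 lines minus that in the UMRC2 lines for each gene, in order of its value and coloured by subgroup, with limma standard errors as bars, filled where the adjusted p is under 0.05. GLA at 1.89 and ULK2 at -2.78 mark the ends.

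The genes had 121 probe sets between them. Besides the ones used, 55 probe sets of 27 genes were above the array median on average. Averaged over the 2 parent lines, 6 of these 55 had a FoxO3 minus EV value of the opposite sign to the probe set used. Among the 17 genes called under FoxO3, 14 had 26 such probe sets, and 0 of the 26 had the opposite sign on that average. Within a parent line, some were below 0. In RCC4 this was a probe set of WIPI1 (-0.14), LAMP2 (-0.05), WIPI2 (-0.37) and PIK3C3 (-0.26), and in UMRC2 one of ATP6V1H (-0.14). The rest of the 26 were above 0 in both lines. Their sizes varied. The other bright probe set gave 2.73 for GABARAPL1 (2.53 for the one used), 1.53 for OPTN (1.21), 0.70 for WIPI1 (1.54), 0.44 for NBR1 (1.02) and 0.16 for ATP6V1H (0.85). PIK3C3 had 0.27, 0.16 and 1.15 (1.02 for the one used) and WIPI2 0.97, 0.89, 0.34 and 0.04 (1.03). LAMP2 had 0.35, 0.71 and 0.32 (0.79), and ATG13 0.54 and 0.86 (1.20). For BECN1, MAP1LC3B, TAX1BP1, CTSB and MITF the others ran from 0.61 to 1.33, and GABARAPL2, CTSL and CTSD had no other bright one.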

How the data were processed

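Per the labels, biotin-labelled targets from total RNA of 12 cultures were read on Affymetrix U133 Plus 2.0 arrays. The deposited values are linear intensity per probe set, made by the authors with MAS5, per the submitters' processing notes; its version and scaling target are not given in the sources used here. As deposited, array medians ran from 71.1 to 138.7. The intensities were quantile-normalised, raised to a lower limit at the 20th percentile (18.4) and put on the log2 scale. GEO's platform annotation, updated to RefSeq symbols, gave 41091 of 54675 probe sets 1 gene; 1801 had several, 11721 none and 62 were controls.

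With limma 3.58.1 under R 4.3.3, each gene's 6 responses were modelled by construct plus cell line (2 residual and 5.44 prior degrees of freedom), with the prior variance trended on mean level. The vehicle arrays had a fit of their own. So had the difference between the parent lines, where FoxO1 and FoxO3 stood as replicates of FoxO in each line. Errors after ± are standard errors from limma, tests are two-sided, and Benjamini-Hochberg adjustment ran over the 14280 genes tested. The cell line pairs the constructs since lines of one parent share it; deviations from the construct mean correlated across genes at 0.209 between FoxO3 and FoxO1 lines, -0.0093 between FoxO3 and EV and -0.0192 between FoxO1 and EV. With cell lines as replicates, p-values say nothing of repeat cultures. The fit was tested on simulated data. Members, lists and tests were chosen with earlier results of these data known.

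Values in every array are given for genes past 0.05 in any of the first 4 comparisons and for the highest and lowest of each subgroup; from the further list, up to 4 called genes per sublist by size of change. Alternatives covered scaling, lower limit, filter, probe set, prior variance, cell line term and leaving out each pair.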

Additional observations from a re-analysis of the deposited data

Results flagged for a closer look

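For 2 genes both isoforms gave responses relative to EV of the same sign within a parent line and of opposite sign between the parent lines. ATG2B, which transfers lipid to the growing autophagosome, had FoxO minus EV values below 0 in RCC4, at -0.06 for FoxO3 and -0.33 for FoxO1, and above 0 in UMRC2, at 0.50 and 0.25. TFE3, of the TFEB family, had -0.22 and -0.49 in RCC4 and 0.49 and 0.16 in UMRC2 for the same isoforms. The difference between the lines, RCC4 minus UMRC2, was -0.57 ± 0.60 for ATG2B and -0.68 ± 0.48 for TFE3 by limma, each with an adjusted p of 0.9997, so neither passed. That fit took FoxO1 and FoxO3 as replicates of FoxO in a line, so their differences entered its standard errors. The FoxO3 responses themselves, 4OHT minus vehicle, were 0.16 in RCC4 and 0.46 in UMRC2 for ATG2B, and 0.004 and 0.58 for TFE3, while those of RCC4 EV were 0.21 and 0.23.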

How the results depend on the processing

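The counts in this section have no share over all genes beside them. They do not show whether these genes or the whole table moved. The floor at the 10th percentile changed no count of called genes. Without cell line as a replicate block the counts were 8 for FoxO, 16 for FoxO3 and 6 for FoxO3 against FoxO1; that fit lost the FoxO3 call of MITF and no other. The counts for FoxO, FoxO3 and FoxO3 against FoxO1 were 0, 1 and 0 as deposited, and 5, 8 and 3 when all probe sets of a gene were averaged. They were 0 in all 3 comparisons without the filter on dim probe sets or with a constant prior variance. With each array divided by its median, chosen after seeing the data, they were 1, 11 and 5. Leaving out 1 pair gave 1 to 11, 8 to 14 and 0 to 6, and 27 to 33 for RCC4 against UMRC2 without 4OHT. For FoxO1, for 4OHT in EV and for the fusion lines without 4OHT every alternative gave 0. The difference between lines also gave 0, and it could not be fitted without an EV pair. A construct left with 1 pair is assumed to vary like the others.

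As deposited, the median over the 47 genes turned to -0.0857 for FoxO, -0.0732 for FoxO1 and -0.0784 for FoxO3, where all genes tested had -0.306, -0.182 and -0.425; the cause was not tested. ATP6V1H turned to -0.0864 for FoxO and -0.0512 for FoxO3 when its probe sets were averaged. SQSTM1 for FoxO ran from -0.400 to 0.109 with 1 pair left out, above 0 without EV replicate 1 (0.109) or FoxO3 replicate 1 (0.0273), where replicate 1 is RCC4. Of 481 repeated values of single genes, 278 kept direction and call, 199 kept direction only and 4 turned.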
